A study of Papio anubis with 40 samples.

Results

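The comparison set serum drawn from 8 olive baboons (Papio anubis) 9 months after menstrual tissue had been inoculated by laparoscopy into their peritoneal cavity to induce endometriosis, against serum of the same animals at month 0, before inoculation. It took the 8 libraries labelled 9 months and the 8 labelled 0 months, 16 of the 40 libraries of the series, paired by animal, and the table lines that carry a fragment ID. The other 24 libraries came from the same animals at months 3, 6 and 15 and entered the fit to give a shared estimate of the spread. Each draw gave 0.5 mL of serum, and the labels record no treatment. No animal went without inoculation, so time since inoculation, age and anything else that differed between the draws cannot be told apart. The question was which circulating tRNA fragments differed at month 9 from each animal's own month 0.

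A transfer RNA folds into a cloverleaf whose anticodon loop is the site where ribonucleases such as angiogenin cut it into a 5' and a 3' piece under stress. Serum is known to carry such 5' pieces of glycine, valine, glutamate and lysine tRNAs in large amounts, and some of them travel in protein complexes or vesicles. A mature tRNA ends in CCA, added after transcription, so a fragment that ends in CCA at the right distance from the T loop keeps the original 3' end. Fragments were grouped here by the parent tRNA read from their own sequences (a family, named by amino acid and anticodon), by class (5', 3' CCA or internal) and by length. The number after tRF- in a fragment's name gives its length in nucleotides (nt).

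The sequences below carry the comparison; they are written as DNA, 5' to 3', and were copied from the deposited sequence table. Capitals mark the bases of the anticodon loop that a fragment keeps and, in 3' fragments, the final CCA. The first 3 show where the most abundant valine and glycine 5' fragments end.
tRF-31-79MP9P9NH57SD (Val-AAC/CAC): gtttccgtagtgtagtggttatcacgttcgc
tRF-27-Q1Q89P9L842 (Gly-CCC): gcgccgctggtgtagtggtatcatgca
tRF-32-Q1Q89P9L8422Q (Gly-CCC): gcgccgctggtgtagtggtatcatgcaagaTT
The next 3 are the 3' CCA fragments of the aspartate tRNA that stood higher at month 9 in every animal; the first of them lies closest to the test's threshold.
tRF-43-96L85DMKYOYRLHR0D2 (Asp-GTC): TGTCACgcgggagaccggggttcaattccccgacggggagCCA
tRF-43-96L85DMKYUYRLHR0D2 (Asp-GTC): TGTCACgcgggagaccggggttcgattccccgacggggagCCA
tRF-42-S5QKF1R3WE8RO86J2 (Asp-GTC): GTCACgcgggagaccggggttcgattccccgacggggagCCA
The last 4 stood lower at month 9 in at least 6 of 8 animals and come from 4 parent tRNAs.
tRF-36-S2P46INO86RM7KE (Lys-CTT, internal): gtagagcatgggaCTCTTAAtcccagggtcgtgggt
tRF-32-86J88PMN1E8YN (Glu-TTC): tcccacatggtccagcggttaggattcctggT
tRF-34-PS5P4PW3FJHPEQ (Lys-TTT): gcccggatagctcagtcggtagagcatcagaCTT
tRF-29-1OR6QO004MI9 (ncMet-CAT): agtaaggtcagctaaacaagctatcgggC
In the valine, aspartate, glutamate and lysine families the loop began at base 32, and in Gly-CCC at base 31. The 31 nt valine fragment therefore stops just before the loop and the 32 nt glycine fragment keeps its first 2 bases. The aspartate 3' fragments begin inside the loop, on the other side of the cut from the 5' fragments.

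Library totals ran from 198840 to 5536169 counts at month 0 and from 889540 to 6245450 at month 9, with means of 3455727 ± 1870784 and 3440612 ± 1565424 (SD, n = 8). A fragment with 0 counts could still have stood at up to 3 counts, which was 0.480 to 15.1 CPM (counts scaled to library size) before TMM scaling; this limit covers counting error only. The month 0 library of PA8001 stood apart: it was the smallest, 10.8% of its counts came from Val-AAC/CAC against 26.8% to 53.5% in the other 7, and 44.1% were 32 to 36 nt long against 12.3% to 29.2%. Several results that rest on it are therefore given with and without PA8001. The share of 5' counts of at least 26 nt that carried a mismatch to the start of their family was 18.4% to 29.1% at month 0 and 19.5% to 31.9% at month 9, higher in 6 of 8 animals. The 5' class held 99.3% ± 0.144 of counts at month 0 and 99.2% ± 0.239 at month 9 (SD, n = 8).

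No single fragment passed an adjusted p of 0.05 at month 9 against month 0: 0 of 2447 tested (0%) by edgeR's quasi-likelihood test with animal as a block. At an unadjusted p under 0.05 there were 201 (8.21%), 97 of them higher (3.96%) and 104 lower (4.25%). DESeq2 and limma-voom also passed 0, with 259 and 111 at an unadjusted p under 0.05, and limma-voom with library weights passed 0, with 39. The median log2 difference over all fragments tested was 0.06 with TMM scaling and -0.07 with library totals only, a shift of the whole table against which the smaller differences below have to be read. With TMM 54.3% of the fragments stood higher at month 9, and with library totals only 44.6% did. Sums per family, class and length group gave 0 of 177 past the threshold (0%), with 16 at an unadjusted p under 0.05 (9.04%) and a smallest edgeR adjusted p of 0.150. Sums per family gave 0 of 34 (0%), with 5 at an unadjusted p under 0.05 (14.7%) and a smallest edgeR adjusted p of 0.198. DESeq2 passed 4 of the group sums and 1 family, all lower at month 9, and limma-voom passed 0 of either, with 12 groups and 4 families at an unadjusted p under 0.05.

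The differences that recurred over families were in where 5' fragments ended. Fragments of 32 to 36 nt, which reach into the anticodon loop, took 12.3%, 22.4% and 44.1% of counts at month 0 (lowest, median and highest library) and 12.9%, 17.5% and 22.5% at month 9. They were lower in 7 of 8 animals, PA8914 being the exception, and the months overlapped. The mean difference was -6.43 percentage points (exact 95.3% sign-flip interval -14.5 to 0.0803; exact two-sided sign-flip p = 0.0625, adjusted p = 0.251 over 25 library measures). Fragments of 30 to 31 nt took 46.7% ± 6.97 at month 0 and 52.5% ± 3.85 at month 9 (SD, n = 8), higher in 6 of 8 animals (exact sign-flip p = 0.0625, adjusted p = 0.251). Without PA8001 the mean differences were -3.68 and 3.48 percentage points. With 8 animals the smallest p that sign flips allow is 0.00781. After adjustment over 25 measures, at least 4 would therefore pass together or none would. None of the 25 passed, and 4 had an unadjusted p under 0.05.

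**Figure D1:**
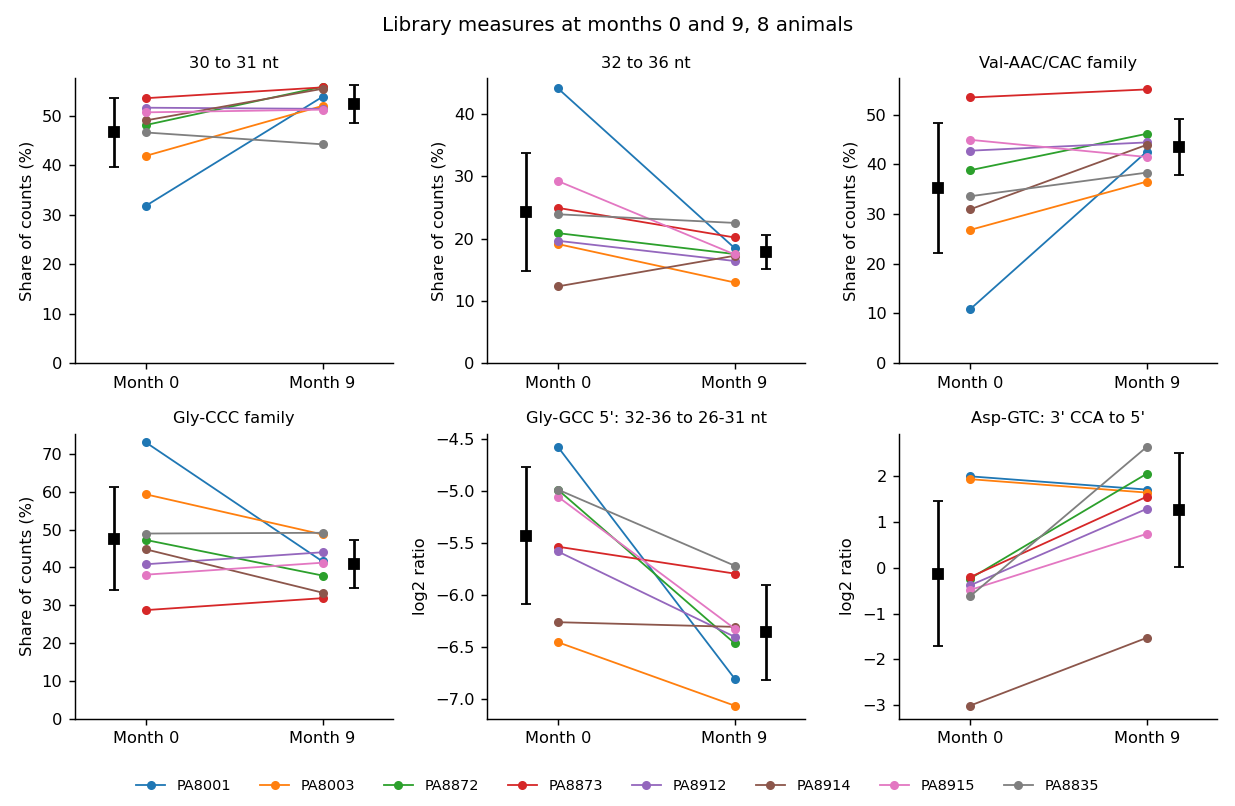
Library measures at month 0 and month 9: the share of counts in percent (upper row and lower left) or a log2 ratio (lower middle and right) for each of 8 animals, joined by lines, with black squares for the mean and bars for the SD. The Gly-GCC ratio is lower at month 9 in 8 of 8 animals, and the month 0 library of PA8001 lies far from the other 7 in the shares.

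The ratio of 32 to 36 nt to 26 to 31 nt 5' fragments within a family does not depend on scaling. In Gly-GCC, whose 5' fragment is among the best known circulating tRNA fragments, the log2 ratio was -6.45, -5.29 and -4.57 at month 0 (lowest, median, highest) and -7.07, -6.36 and -5.72 at month 9. It was lower in 8 of 8 animals, with a mean difference of -0.93 (exact 95.3% interval -1.51 to -0.35), the smallest p the design allows (exact sign-flip p = 0.00781) and an adjusted p of 0.195. The same log2 ratio differed by -0.66 in Gly-CCC (lower in 7 of 8 animals, exact sign-flip p = 0.0703) and by -0.35 in Val-AAC/CAC (lower in 6 of 8, exact sign-flip p = 0.0469). It differed by -0.74 in Glu-CTC (lower in 6 of 8, exact sign-flip p = 0.125) and by -0.35 in Lys-TTT (lower in 4 of 8, exact sign-flip p = 0.234). All 5 family means had the same sign, and without PA8001 they lay between -0.14 (Lys-TTT) and -0.75 (Gly-GCC). Whether the families differ from one another in this ratio was not tested.

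Fragment by fragment, the same order of lengths was seen in the medians. Of 514 5' fragments of 32 to 36 nt that passed the filter, out of 5338 in the table, 392 had a negative log2 difference and 122 a positive one, 52 and 1 of them at an unadjusted p under 0.05, with a median of -0.38 against 0.06 over all fragments tested. Without PA8001 that median was -0.23. Of 551 fragments of 25 to 29 nt (of 6589), 387 stood higher, with a median of 0.18. Gly-CCC gave 226 of these 387 and Gly-GCC 96, while 29 of 43 Glu-CTC and 21 of 30 Lys-TTT fragments stood lower. Of 830 fragments of 30 to 31 nt (of 5046), 522 stood higher, with a median of 0.13. At an unadjusted p under 0.05, 58 were higher and 12 lower. Val-AAC/CAC gave 168 of the 522 and 49 of the 58, while 115 of 128 Gly-CCC fragments stood lower. The pooled medians therefore depend on which families were tested at each length. By single length the medians were 0.48 at 26 nt, 0.33 at 27 nt, 0.20 at 28 nt, 0.03 at 29 nt, 0.07 at 30 nt and 0.18 at 31 nt, against -0.32 at 32 nt, -0.46 at 33 nt and -0.65 at 34 nt. Short 5' fragments of 16 to 24 nt had a median of -0.20 over 138 tested (of 4756). Those of exactly 16 nt were lower in 16 of 16 tested, with a median of -0.83. At 19 nt, 25 of 41 stood higher (median 0.07). The median at 22 nt was 0.04, and the other lengths in this range had medians below 0. Length variants of 1 tRNA share molecules and are not independent, so these counts describe the table and are no test.

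**Figure D2:**
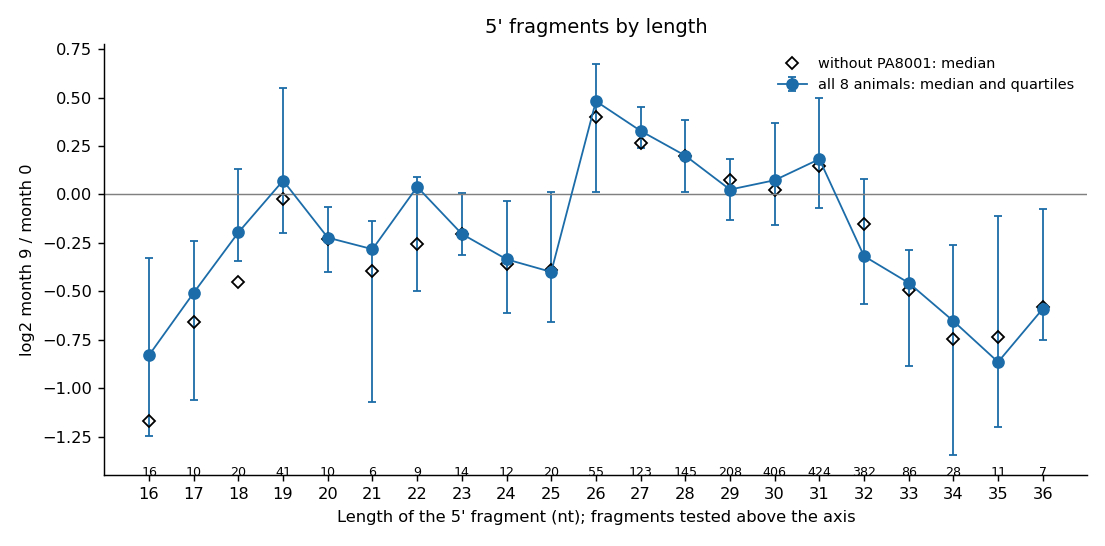
Median log2 ratio of month 9 to month 0 (vertical axis) of the 5' fragments tested at each length in nt (horizontal axis), with bars for the quartiles, the number of fragments above the axis, and open diamonds for the median without PA8001. Medians are above 0 from 26 to 31 nt and below 0 from 32 to 36 nt, with and without PA8001.

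Valine fragments stood higher at month 9, mainly those of 30 to 31 nt. The Val-AAC/CAC family took 10.8%, 36.2% and 53.5% of counts at month 0 (lowest, median, highest) and 36.5%, 43.3% and 55.1% at month 9. It was higher in 7 of 8 animals, PA8915 being the exception, and the months overlapped. The mean difference was 8.30 percentage points (exact 95.3% interval 0.971 to 18.2; exact sign-flip p = 0.0391, adjusted p = 0.251), and 4.95 without PA8001. The most abundant fragment of all, tRF-31-79MP9P9NH57SD, stood at 21638, 165890 and 273520 CPM at month 0 and at 108930, 252200 and 306350 CPM at month 9. It was higher in 6 of 8 animals, and 2 month 9 libraries lay above every month 0 library (log2 0.69 ± 0.333 SE, edgeR adjusted p = 0.582). Without PA8001 its log2 difference was 0.29. Among the 169 Val-AAC/CAC fragments of 30 to 31 nt that passed the filter, out of 829, 168 stood higher, 49 of them at an unadjusted p under 0.05, with a median of 0.57. That median was 0.43 with library totals only and 0.38 without PA8001. The 161 tested valine fragments of 32 to 36 nt had a median of 0.08.

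Minor variants of the valine fragment also stood higher, but they were named for being higher in at least 7 animals and are no separate support. The variant with A14C (position counted from the first base of the fragment), tRF-31-79MP9S9NH57SD, stood at 23.6, 76.1 and 143 CPM at month 0 and at 79.3, 135 and 186 CPM at month 9. It was higher in 8 of 8 animals (log2 0.78 ± 0.274 SE, edgeR adjusted p = 0.582). The variant with C23T, tRF-31-79MP9P9NI57SD, stood at 63.0, 271 and 501 CPM at month 0 and at 300, 434 and 825 CPM at month 9, also higher in 8 of 8 (log2 0.85 ± 0.310 SE, edgeR adjusted p = 0.582). For the second variant 6 month 0 libraries lay below every month 9 library. Without PA8001 the log2 difference was 0.63 for either variant. Set against tRF-31-79MP9P9NH57SD, the A14C variant made up a median of 0.0506% of the pair at month 0 and 0.0611% at month 9, and the C23T variant 0.170% and 0.187%. Either share was higher in 5 of 8 animals.

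Summed over the family, Val-AAC/CAC had a log2 difference of 0.64 ± 0.254 SE (edgeR adjusted p = 0.198), against a median of 0.24 over the 34 families. The second valine family, Val-TAC, stood at 1190, 1623 and 3436 CPM at month 0 and at 1497, 2264 and 5726 CPM at month 9, higher in 7 of 8 animals (log2 0.52 ± 0.220 SE, edgeR adjusted p = 0.198). The initiator methionine tRNA, which starts translation, stood at 743, 1059 and 1311 CPM and then at 900, 1442 and 2366 CPM (iMet-CAT, higher in 7 of 8; log2 0.52 ± 0.213 SE, edgeR adjusted p = 0.198). A family whose anticodon was not read, called unread start 1, stood at 448, 651 and 1035 CPM and then at 649, 989 and 1203 CPM (higher in 6 of 8; log2 0.57 ± 0.218 SE, edgeR adjusted p = 0.198). The most abundant fragment of unread start 1, tRF-19-OUR830JZ, was higher in 3 of 8 animals and lower in 5. Its medians were 600 CPM at month 0 and 602 CPM at month 9 (log2 0.73 ± 0.430 SE, edgeR adjusted p = 0.648). Of the 19 tested 5' fragments of unread start 1, 13 stood higher and 6 lower. Family sums moved with the scaling. With library totals only, the 34 families had a median of -0.04, and these 4 had log2 differences of 0.38, 0.32, 0.18 and 0.34. A fit without PA8001 gave 0.06, -0.09, -0.05 and 0.01, but it also moved the median of the families from 0.24 to -0.24. With the scaling of all libraries kept, Val-AAC/CAC was higher in 7 of the 7 other animals, Val-TAC in 6, iMet-CAT in 6 and unread start 1 in 5.

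Glycine fragments split by length. The Gly-CCC family as a whole took 47.7% ± 13.6 of counts at month 0 and 41.0% ± 6.42 at month 9 (SD, n = 8), lower in 4 of 8 animals (exact sign-flip p = 0.141, adjusted p = 0.320). The family's mean difference was -6.67 percentage points, and -3.12 without PA8001. With TMM scaling, the Gly-CCC family sum was higher in 5 of 8 animals (log2 0.00435 ± 0.233 SE, edgeR adjusted p = 0.985). Of its tested 5' fragments, 226 of 281 at 25 to 29 nt stood higher (median 0.21), 115 of 128 at 30 to 31 nt stood lower (median -0.23) and 90 of 94 at 32 to 36 nt stood lower (median -0.50). The last median was -0.22 without PA8001. The 27 nt fragment tRF-27-Q1Q89P9L842 stood at 17158, 131460 and 255740 CPM at month 0 and at 73631, 173520 and 273550 CPM at month 9, higher in 4 of 8 animals (log2 0.45 ± 0.375 SE, edgeR adjusted p = 0.676). The 32 nt fragment tRF-32-Q1Q89P9L8422Q stood at 40698, 70742 and 124690 CPM and then at 26543, 50075 and 83383 CPM, lower in 7 of 8 (log2 -0.49 ± 0.331 SE, edgeR adjusted p = 0.648). The intermediate forms tRF-29-Q1Q89P9L84FS and tRF-30-Q1Q89P9L8422 had log2 differences of 0.12 and -0.07.

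Within Gly-CCC, a pair of 27 nt variants was named for being higher in at least 7 animals. The variant with T13G, tRF-27-Q1Q8909L842, was higher in 8 of 8 (50.6 to 100 CPM by median, log2 0.98 ± 0.311 SE, edgeR adjusted p = 0.582). The variant with T11G, tRF-27-Q1Q8RP9L842, was higher in 7 of 8 (log2 0.88 ± 0.366 SE, edgeR adjusted p = 0.582). Set against the main 27 nt sequence, either variant was higher in 5 of 8 animals as a share. The share of 5' counts with any mismatch, given above, was also higher at month 9 in 6 of 8 animals (exact sign-flip p = 0.359), and its part in these differences was not tested.

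Gly-GCC followed the same order of lengths: 96 of 114 tested 5' fragments at 25 to 29 nt stood higher (median 0.35) and 19 of 20 at 32 to 36 nt stood lower (median -0.66). Minor variants of Gly-GCC were named by the same rule. The 30 nt variant with T5G and C13T, tRF-30-P4R8ZP9LON4V, stood at 10.5, 26.2 and 48.0 CPM at month 0 and at 12.03, 39.5 and 81.3 CPM at month 9. It was higher in 8 of 8 animals (log2 0.64 ± 0.252 SE, edgeR adjusted p = 0.582). Its month 0 mean was 27.8 CPM, against 28311 CPM for the group sum of Gly-GCC 5' fragments of 30 to 31 nt. The 28 nt variant with T4C and T5G, tRF-28-PHR8YP9LOND5, was likewise higher in 8 of 8 (log2 0.65 ± 0.266 SE, edgeR adjusted p = 0.582). In PA8001 it stood at 0 CPM at month 0, where 3 counts came to 7.88 CPM, and at 4.18 CPM at month 9.

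Glutamate and lysine 5' fragments that reached the loop mostly stood lower, and those that ended before it were mixed. In Glu-CTC, 72 of 76 tested fragments of 32 to 36 nt stood lower, 16 of them at an unadjusted p under 0.05, with a median of -0.61 (-0.42 without PA8001), while 73 of 108 at 30 to 31 nt stood higher and 29 of 43 at 25 to 29 nt stood lower. In Glu-TTC, 28 of 28 tested fragments of 32 to 36 nt (of 638) stood lower, 9 at an unadjusted p under 0.05, with a median of -0.67. Shorter Glu-TTC fragments also stood lower: 34 of 42 at 30 to 31 nt (median -0.13) and 11 of 15 at 25 to 29 nt (median -0.41). The group sum of Glu-TTC at 32 to 36 nt was 801, 1932 and 3904 CPM at month 0 and 608, 1224 and 2381 CPM at month 9, lower in 6 of 8 animals (log2 -0.84 ± 0.344 SE, edgeR adjusted p = 0.403). The Glu-TTC variant with T13C, tRF-32-86J88PMN1E8YN, stood at 1.49, 2.93 and 10.5 CPM and then at 0.359, 1.44 and 2.91 CPM. It was lower in 8 of 8 (log2 -1.24 ± 0.358 SE, edgeR adjusted p = 0.582), at levels near the limit of 3 counts. The 10.5 CPM came from PA8001, where 3 counts at month 0 came to 7.88 CPM. More abundant was the variant with C6T, tRF-32-86V8WPMN1E8YN, at 70.3, 130 and 657 CPM and then at 35.9, 105 and 169 CPM. It was lower in 8 of 8 (log2 -1.05 ± 0.390 SE, edgeR adjusted p = 0.582, and log2 -0.44 without PA8835). In Lys-TTT, 61 of 71 tested fragments of 32 to 36 nt stood lower (median -0.23), as did 21 of 30 at 25 to 29 nt, while 74 of 122 at 30 to 31 nt stood higher. Its 34 nt fragment tRF-34-PS5P4PW3FJHPEQ stood at 7.88, 12.1 and 209 CPM at month 0 and at 1.46, 6.46 and 40.1 CPM at month 9, lower in 7 of 8 (log2 -1.96 ± 0.637 SE, edgeR adjusted p = 0.582). The highest value of both months came from PA8914. In Lys-CTT, 24 of 31 tested fragments of 32 to 36 nt stood lower, with a median of -0.11 (-0.05 without PA8001), while 60 of 64 at 30 to 31 nt stood higher (median 0.38). The 33 nt Lys-CTT fragment tRF-33-PSQP4PW3FJIKW stood at 6.05, 27.9 and 39.4 CPM and then at 4.53, 10.1 and 20.2 CPM. It was lower in 7 of 8 (log2 -1.31 ± 0.496 SE, edgeR adjusted p = 0.582).

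The 3' CCA and the 5' fragments of the aspartate tRNA went in opposite directions. Of its 3' CCA fragments, 34 of 1580 passed the filter and 34 stood higher, 9 at an unadjusted p under 0.05, with a median of 0.64. Of its 5' fragments, 22 of 1212 passed the filter and 22 stood lower, 5 at an unadjusted p under 0.05, with a median of -0.88. Without PA8001 these medians were 0.74 and -0.89, and with library totals only 0.48 and -1.03. Internal Asp-GTC fragments, which include 3'-side fragments that lack the CCA end, had a median of 0.12 over 88 tested, 53 of them higher. Their group of 32 to 36 nt had means of 1649 ± 1002 CPM at month 0 and 1618 ± 643 CPM at month 9 (SD, n = 8). The 3' CCA group of 37 nt or more had 337 ± 283 and 458 ± 330 CPM. The log2 ratio of 3' CCA to 5' counts in this family was -3.01, -0.31 and 1.99 at month 0 and -1.53, 1.59 and 2.63 at month 9. It was higher in 6 of 8 animals, PA8001 and PA8003 being the exceptions, with a mean difference of 1.38 (exact 95.3% interval 0.362 to 2.40; exact sign-flip p = 0.0312, adjusted p = 0.251). The share of the family in all counts was 0.282% ± 0.101 at month 0 and 0.283% ± 0.0889 at month 9 (SD, n = 8).

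Among the Asp-GTC 3' CCA fragments, tRF-42-S5QKF1R3WE8RO86J2 had the highest level. It begins with the anticodon GTC and stood at 16.6, 33.6 and 102 CPM at month 0 and at 33.7, 98.6 and 276 CPM at month 9. It was higher in 8 of 8 animals, and 4 month 9 libraries lay above every month 0 library (log2 1.17 ± 0.322 SE, edgeR adjusted p = 0.582). The form that begins 1 base earlier, tRF-43-96L85DMKYUYRLHR0D2, stood at 2.81, 9.22 and 28.6 CPM and then at 9.501, 22.4 and 61.9 CPM, higher in 8 of 8 (log2 1.09 ± 0.364 SE, edgeR adjusted p = 0.582). Its variant tRF-43-96L85DMKYOYRLHR0D2, which has G24A in the T loop region, stood at 0, 0.349 and 2.42 CPM and then at 0.611, 2.66 and 6.46 CPM, higher in 8 of 8 (log2 1.85 ± 0.432 SE, edgeR adjusted p = 0.329). This was the smallest adjusted p among the fragments, at levels near the limit of 3 counts. The variant made up a median of 6.53% of the pair at month 0 and 8.38% at month 9, higher in 7 of 8 animals. The 41 nt form tRF-41-8HM2OSRNLNKSEK51B was higher in 6 of 8 (log2 0.88 ± 0.445 SE, edgeR adjusted p = 0.582). The highest month 9 level of the 42 nt form came from PA8835, whose month 9 library was the smallest of that month and held 0.270% of its counts in 3' CCA fragments against 0.0350% to 0.0900% in the other 7; without that animal its log2 difference was 0.90. On the 5' side, the Asp-GTC group of 32 to 36 nt stood at 84.6, 292 and 788 CPM and then at 75.7, 118 and 607 CPM, lower in 7 of 8 (log2 -0.92 ± 0.360 SE, edgeR adjusted p = 0.388). The 3' CCA fragments of other or unassigned tRNAs stood lower in 12 of 18 tested, with a median of -0.49.

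**Figure D3:**
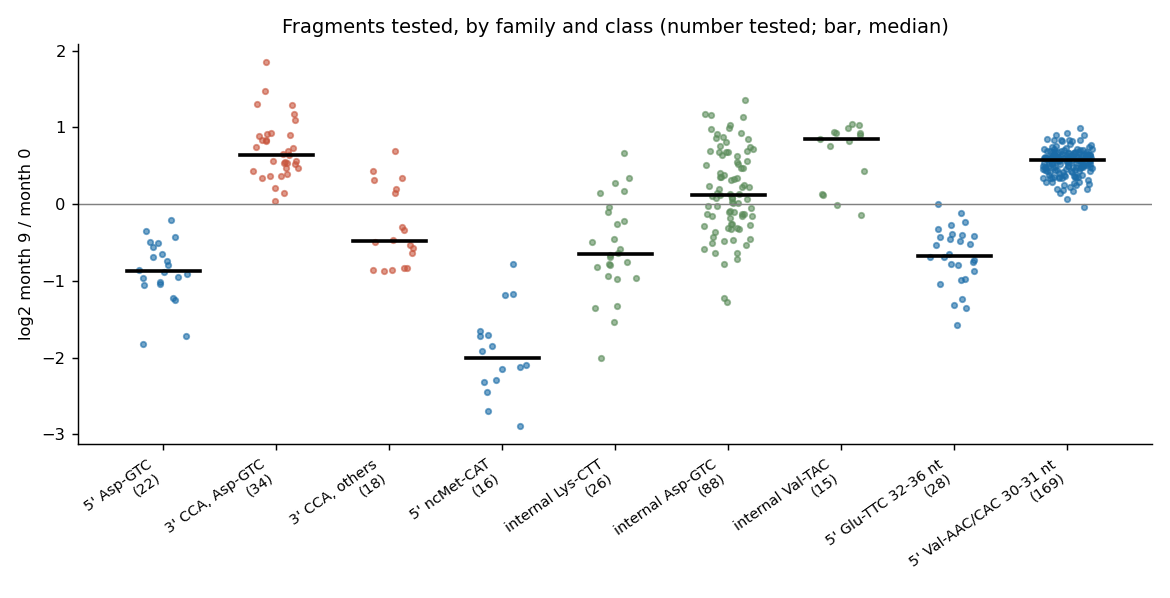
Log2 ratio of month 9 to month 0 (vertical axis) of each fragment tested in 9 sets by class and family (horizontal axis, number tested in parentheses), with a bar for the median. Points of the Asp-GTC 3' CCA set lie above 0 and those of the Asp-GTC and ncMet-CAT 5' sets below 0.

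The lowest log2 differences among the named groups belonged to a methionine tRNA that lacks the conserved D loop bases of cytosolic tRNAs, called ncMet-CAT here. Such a reduced D loop is typical of mitochondrial tRNAs, and no mitochondrial sequence was used for the reading. Of its 5' fragments, 16 of 281 passed the filter and 16 stood lower, 12 at an unadjusted p under 0.05, with a median of -2.004. Its 25 to 29 nt group stood at 5.48, 34.6 and 388 CPM at month 0 and at 3.12, 10.4 and 60.8 CPM at month 9, lower in 6 of 8 animals (log2 -2.10 ± 0.649 SE, edgeR adjusted p = 0.150). The 32 to 36 nt group stood at 0, 11.2 and 112 CPM and then at 0.694, 3.80 and 7.65 CPM, lower in 5 of 8 (log2 -2.37 ± 0.729 SE, edgeR adjusted p = 0.150), and the 30 to 31 nt group gave log2 -1.88 ± 0.648 SE (edgeR adjusted p = 0.282). The month 0 levels were uneven: PA8872 held 388 CPM of the 25 to 29 nt group against at most 76.4 CPM in the other 7, and without PA8872 the log2 difference was -1.27. Without PA8872 the 30 to 31 nt group gave -0.99, and without PA8835 the 32 to 36 nt group gave -1.59. DESeq2 called these 3 groups, at adjusted p-values of 0.0127, 0.0127 and 0.0399. The leading fragment, tRF-29-1OR6QO004MI9, stood at 4.45, 21.7 and 430 CPM and then at 4.66, 8.17 and 45.7 CPM (log2 -2.30 ± 0.740 SE, edgeR adjusted p = 0.582).

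The cysteine tRNA also stood lower. Its 5' group of 32 to 36 nt was 5.93, 28.3 and 116 CPM at month 0 and 2.87, 14.2 and 54.6 CPM at month 9, lower in 5 of 8 animals (log2 -1.58 ± 0.586 SE, edgeR adjusted p = 0.365). Summed over the family, Cys-GCA had a log2 difference of -1.06 ± 0.476 SE, lower in 4 of 8 animals (edgeR adjusted p = 0.219). DESeq2 called the family at an adjusted p of 0.0420, and edgeR without PA8003 at 0.0424, while limma-voom with library weights gave a log2 difference of -0.08.

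Internal fragments of Lys-CTT stood lower in 21 of 26 tested (of 1950), with a median of -0.65. Their member with the smallest p, tRF-36-S2P46INO86RM7KE, holds the whole anticodon loop and stood at 0, 8.24 and 25.9 CPM at month 0 and at 0.567, 2.12 and 5.33 CPM at month 9. It was lower in 6 of 8 animals, and 6 month 0 libraries lay above every month 9 library (log2 -2.01 ± 0.546 SE, edgeR adjusted p = 0.582). The month 0 library at 0 was that of PA8001, where 3 counts, the limit for a count of 0, came to 7.88 CPM on this TMM scale. The sum of internal Lys-CTT of 32 to 36 nt, where tRF-36-S2P46INO86RM7KE was the only fragment tested, gave log2 -1.22 ± 0.377 SE (edgeR adjusted p = 0.150, DESeq2 adjusted p = 0.0361). The larger group of 16 to 24 nt had means of 271 ± 86.5 CPM at month 0 and 186 ± 97.6 CPM at month 9 (SD, n = 8). Means were higher at month 9 at 30 to 31 nt (2.95 and 3.57 CPM) and at 37 nt or more (7.85 and 10.1 CPM). Internal fragments of Val-TAC stood higher in 13 of 15 tested, with a median of 0.85, but 0.27 without PA8001. The most abundant of them, tRF-35-LPD3387SFRJ4O1, stood at 147, 330 and 795 CPM and then at 138, 403 and 2685 CPM, higher in 4 of 8 (log2 0.90 ± 0.460 SE, edgeR adjusted p = 0.582; 0.27 without PA8001). An internal fragment of no assigned tRNA, tRF-32-L2RRM38B8SOUM, was the most abundant of its class at 49.9, 394 and 1467 CPM and then 225, 611 and 1728 CPM, higher in 6 of 8 (log2 1.04 ± 0.532 SE, edgeR adjusted p = 0.582; 0.35 without PA8001).

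The lists that follow, which pool several families, had medians between 0.01 and 0.20. Some lists not described above lay outside that range. The 5' fragments of 37 nt or more stood lower in 18 of 23 tested (median -0.89), and 9 of these 23 came from ncMet-CAT. The 5' fragments of iMet-CAT stood higher in 24 of 30 tested (median 0.34), and those of Leu-AAG lower in 9 of 10 (median -0.72). The 5' fragments of Asp-GTC, His-GTG and Lys-CTT, described elsewhere as dependent on sex hormones, had 78 of 134 tested higher and a median of 0.09, which pools opposite directions: 22 of 22 Asp-GTC fragments stood lower (median -0.88) and 75 of 108 Lys-CTT fragments higher (median 0.22). Those beginning with at least 4 guanines, which can form quadruplexes, had 27 of 51 higher and a median of 0.01. Internal and 3' fragments of glutamate, aspartate and glycine tRNAs, described to bind the RNA-binding protein YBX1, had 159 of 240 higher and a median of 0.20; 34 of these 240 are the Asp-GTC 3' CCA fragments above. Tyrosine tRNA belongs to the same list, and no tyrosine family was read from the sequences. A named fragment not described above was tRF-16-OUR830E of unread start 1 (16 nt, log2 -1.29, lower in 8 of 8). Also lower were tRF-26-86J8WPMN1EE of Glu-TTC (log2 -0.91, lower in 7) and tRF-32-87R8WP9N1E8JM of Glu-CTC (log2 -0.92, lower in 7). Abundant forms with small differences were tRF-31-79MP9P9NHR7SD (0.58), tRF-31-79MP9PMNH57SD (0.63), tRF-32-79MP9P9NH57SJ (0.30), tRF-31-PS5P4PW3FJHPB (0.22) and tRF-31-87R8WP9N1EWJ0 (0.24). None of these 8 passed, with edgeR adjusted p-values of 0.582 to 0.847. Among 1109 tested fragments with a mean of at least 10 CPM, 105 were higher and 39 lower in at least 7 of 8 animals (13.0% together). In 8 of 8 animals, 35 were higher and 7 lower.

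**Figure D4:**
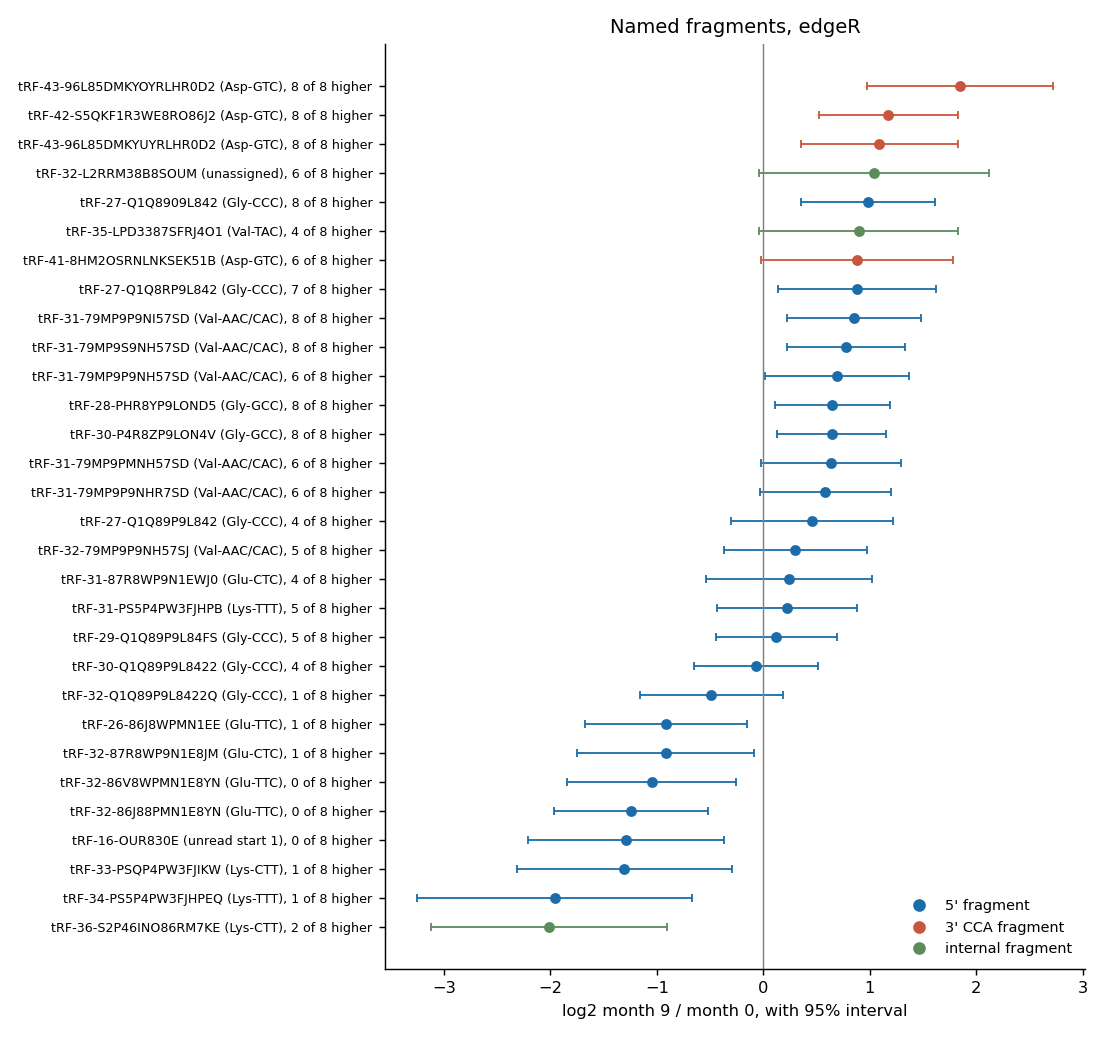
Log2 ratio of month 9 to month 0 from edgeR (horizontal axis) for the 30 named fragments (vertical axis, with the family and the number of animals higher), with bars for the 95% interval and colours for the class. The 3 highest are Asp-GTC 3' CCA fragments (1.85, 1.17 and 1.09), and no fragment passed after adjustment, including those whose interval leaves out 0.

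The draws on either side of month 9 were compared with it in the same fit. Against month 3, 0 of 2447 fragments passed (0%) by edgeR, with 56 at an unadjusted p under 0.05 (2.29%), and against month 6, 0 passed (0%), with 49 (2.00%). DESeq2 and limma-voom passed 0 in both, with 93 and 31 against month 3 and 81 and 29 against month 6 at an unadjusted p under 0.05. Between months 9 and 15, 749 of 2447 passed (30.6%), 445 higher and 304 lower at month 15, with 1058 at an unadjusted p under 0.05 (43.2%). Only 16 passed when PA8001 and PA8003 were left out at month 15, and 189 when PA8003 was left out at every month. This comparison shares its month 9 libraries with the one above. At month 15 against month 9, tRF-36-S2P46INO86RM7KE was higher (log2 3.00 ± 0.550 SE, edgeR adjusted p = 0.00319) and tRF-27-Q1Q8909L842 was lower (log2 -1.57 ± 0.317 SE, edgeR adjusted p = 0.00440). The Asp-GTC fragments tRF-42-S5QKF1R3WE8RO86J2 and tRF-43-96L85DMKYOYRLHR0D2 differed by log2 -0.01 and 0.02 (edgeR adjusted p = 0.993 and 0.972). The mean share of 32 to 36 nt fragments was 24.3%, 20.3%, 18.8%, 17.8% and 35.4% at months 0, 3, 6, 9 and 15. The mean log2 ratio of Asp-GTC 3' CCA to 5' counts was -0.13, 0.36, 0.81, 1.25 and 0.82.

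**Figure D5:**
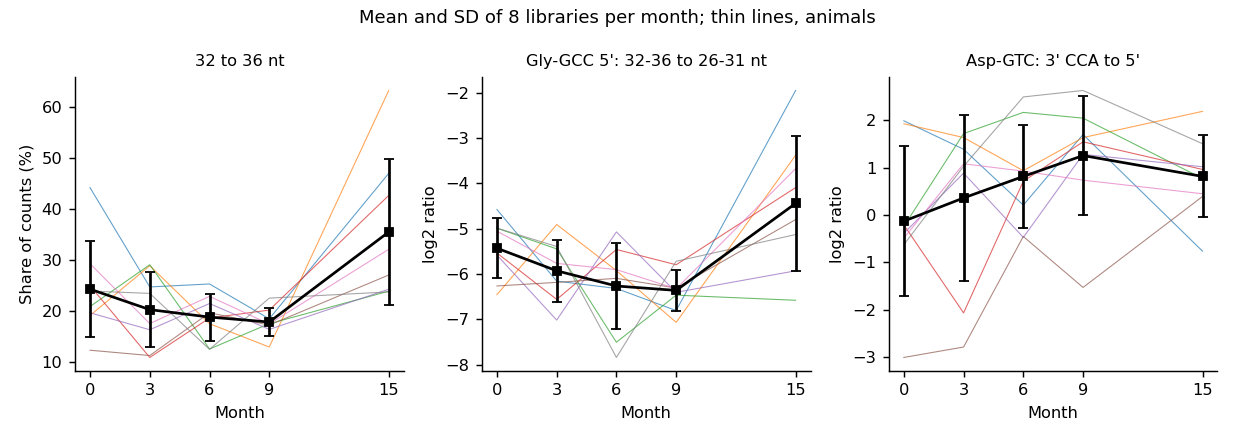
Share of 32 to 36 nt counts in percent, and log2 ratios of Gly-GCC 5' lengths and of Asp-GTC 3' CCA to 5' counts (vertical axes), by month (horizontal axis), with squares for the mean of 8 libraries, bars for the SD and thin lines for the animals. Of the 5 months, month 9 has the lowest mean share of 32 to 36 nt (17.8%) and the highest mean Asp-GTC ratio (1.25).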

How the data were processed

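The deposited second file holds the fragment sequences as text. The deposited table holds whole-number counts per fragment and library, made by the authors and not scaled. Per the labels, RNA from 0.5 mL of serum received a 3' and a 5' adapter, with molecular identifiers (UMIs) assigned at cDNA synthesis. R 4.5.0, edgeR and limma stand in the submitters' processing notes with no role. The aligner, the tRNA reference and whether counts were collapsed by identifier are unknown: not given in the sources here. Of 60201 lines, 1614 without an ID (0.0805% of counts, each with an unread base) were left out, which left 58587 fragments.

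tRNA families came from the fragment sequences, with the anticodon read in fragments of at least 42 nt, and other 5' fragments by at most 2 mismatches (1 up to 20 nt) to the 31-base starts of those. Internal and 3' fragments needed an exact match or a chained overlap of 22 nt. The 26 families with a read anticodon held 99.6% of counts. Of 3' CCA counts of at least 23 nt, 91.1% had the T loop at the distance of a mature 3' end. Valine AAC and CAC could not be separated.

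Tests used edgeR 4.0.16 in R 4.3.3 (filterByExpr with a minimum count of 10, TMM, robust quasi-likelihood, animal as a block, month as a factor, all 40 libraries, Benjamini-Hochberg over all features tested). CPM values are scaled by TMM, separately for fragments, groups and families. DESeq2 1.42.0 and limma 3.58.1 (voom) were alternatives. The scripts were tested on simulated data. Pairing comes from the labels, which name the animal: deviations from the month means at months 0 and 9 correlated at a mean of 0.160 within animals and -0.0216 between different animals. Each group's 8 libraries come from separate animals. Library measures were compared with exact two-sided sign-flip tests, adjusted over 25. The number of distinct fragments at a common depth of 198840 counts is the expected number.

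Named fragments were those past the threshold or, with fewer than 3, the 5 smallest p; the first 8 higher and 8 lower by p with a mean of at least 10 CPM and the same sign in at least 7 animals, at most 2 per family and class; the 10 most abundant; and the 2 most abundant 3' CCA and internal fragments. Of these, 2 fragments are not reported here. For families and groups, the 5 smallest p were named. Other fragments of the named groups were chosen as their most abundant member. The members and lists were chosen with earlier results of these data known.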

Additional observations from a re-analysis of the deposited data

Results flagged for a closer look

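Of 130 sets of 8 values, 27 had a library whose gap to the next, divided by the range, exceeded Dixon's 95% critical value. Chance alone gives about 1 in 20 only for independent sets of normally distributed values. These sets share libraries and many hold CPM values without a log, so 27 of 130 cannot be read against that rate. At month 0 the library of PA8001 stood highest in the Lys-TTT log2 length ratio (0.24), in tRF-32-86J88PMN1E8YN (10.5 CPM), in tRF-16-OUR830E (63.0 CPM) and in Val-TAC (3436 CPM). PA8872 stood highest in the share of 37 nt or more (0.264%), and in ncMet-CAT 5' fragments of 25 to 29 nt (388 CPM) and 30 to 31 nt (211 CPM). PA8914 stood highest in tRF-34-PS5P4PW3FJHPEQ (209 CPM) and tRF-35-LPD3387SFRJ4O1 (795 CPM), PA8835 in tRF-32-86V8WPMN1E8YN (657 CPM) and ncMet-CAT 5' fragments of 32 to 36 nt (112 CPM), and PA8915 in internal Lys-CTT of 32 to 36 nt (38.5 CPM).

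At month 9 the library of PA8835 stood apart in 5 sets: it was highest in the shares of 16 to 24 nt (1.02%), 37 nt or more (0.238%) and 3' CCA fragments (0.270%) and in tRF-42-S5QKF1R3WE8RO86J2 (276 CPM), and lowest in the share of 30 to 31 nt (44.2%). PA8001 stood highest in the internal share (1.27%), tRF-16-OUR830E (39.2 CPM), tRF-35-LPD3387SFRJ4O1 (2685 CPM) and Val-TAC (5726 CPM). PA8914 stood lowest in the Asp-GTC log2 ratio of 3' CCA to 5' counts (-1.53) and highest in tRF-34-PS5P4PW3FJHPEQ (40.1 CPM) and Cys-GCA 5' fragments of 32 to 36 nt (54.6 CPM). PA8872 stood highest in tRF-31-79MP9P9NI57SD (825 CPM), and PA8873 in ncMet-CAT 5' fragments of 25 to 29 nt (60.8 CPM) and 30 to 31 nt (35.97 CPM).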

How the results depend on the processing

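No fragment passed an adjusted p of 0.05 at month 9 against month 0 except with no filter on low counts, where 8 passed (1 higher, 7 lower); library totals only, DESeq2, limma-voom, a minimum count of 50, only months 0 and 9, and each animal left out gave 0. Among group sums 4 passed with DESeq2, 5 with no filter and 1 with no replicate block, and 0 to 1 when an animal was left out; among families 1 passed with DESeq2 and 0 to 1 when an animal was left out. Without the replicate block (the pairing by animal) 0 fragments passed. Month 15 against month 9 gave 708 without the block, 359 with library totals only, 16 without 2 month 15 libraries, and 189 to 853 when an animal was left out.

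The cause of these changes was not tested. The sign changed for tRF-29-Q1Q89P9L84FS with library total as covariate (-0.00772) and library totals only (-0.10), for tRF-31-PS5P4PW3FJHPB with library totals only (-0.0140), for the Asp-GTC share with fragments of a total of at least 10 (-0.000982 points) and for the number of distinct fragments without the most abundant fragment (20.7). Leaving out an animal gave log2 ranges of -0.0142 to 0.25 (tRF-29-Q1Q89P9L84FS), -0.21 to 0.0893 (tRF-30-Q1Q89P9L8422), -0.0213 to 0.55 (tRF-32-79MP9P9NH57SJ), -0.10 to 0.41 (tRF-31-PS5P4PW3FJHPB), -0.0478 to 0.55 (tRF-31-87R8WP9N1EWJ0), -0.0462 to 0.45 (iMet-CAT) and -0.0875 to 0.55 (Val-TAC). It gave -380370 to 562460 counts for the library total, -174 to 64.5 for distinct fragments, and, in percentage points of share, -0.852 to 2.41 for 25 to 29 nt, -0.0312 to 0.00937 for 37 nt or more, -0.0128 to 0.0312 for 3' CCA, -0.00297 to 0.125 for internal and -0.0406 to 0.0324 for Asp-GTC. No other named fragment, family, group sum or library measure changed sign under the settings run for it, while some list medians near 0 did: that of Val-AAC/CAC 5' fragments of 32 to 36 nt was 0.08, and -0.02 without PA8001. Depth limits low fragments most in the month 0 library of PA8001. The setting without 2 month 15 libraries was chosen after seeing the data.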
